A study of Mus musculus with 2 samples.

Results

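The classic SMAD target genes described here are Id1, Id2, Id3, Cdkn1a, Fn1, Tgfbi, Klf10, Tsc22d1 and Pmepa1, 9 of the 18193 genes that the array annotation names through probe sets of a single gene symbol. All 24 probe sets carrying 1 of these symbols were taken, of 45037 probe sets that are not controls, with no use of their measured values. The data are 1 array of washed platelets from each genotype: Smad4 f/f mice, in which loxP sites flank Smad4, and Smad4 -/- mice, which carry the same floxed gene together with a Cre transgene driven by the PF4 promoter, active in megakaryocytes and platelets. The strain is C57BL/6, no age or sex is used here, and the design text gives 6 mice for each genotype without saying whether their RNA was pooled. The labels speak of the controls both as Smad4 f/f and as wild type and do not say whether the controls carried Cre. There are no replicate arrays, so each difference below is one between 2 arrays, with no test and no error of a genotype.

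SMAD4 is the partner that receptor-activated SMAD proteins share: SMAD2 and SMAD3 after TGF-beta or activin, SMAD1, SMAD5 and SMAD9 after bone morphogenetic proteins (BMPs). The complexes bind short DNA motifs and switch target genes on or off. Platelets have no nucleus and carry transcripts that their parent megakaryocytes made, so their RNA reads out earlier transcription in the megakaryocyte. Id1, Id2 and Id3 are the textbook BMP targets, and Klf10, Tsc22d1, Pmepa1, Tgfbi, Fn1 and Cdkn1a are known as TGF-beta targets.

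To show what the SMAD motifs look like at these genes, start-site windows are printed for Cdkn1a and Tgfbi, the genes with a window whose values were highest towards Smad4 -/-, for Id2, whose probe sets disagree, and for Tsc22d1, whose signal was nearly equal. Each window runs from 250 bases before to 50 bases after an annotated start, 5′ to 3′ on the gene's strand, from RefSeq on GRCm38.p6. The table used holds 10 windows for 5 of the 9 genes. Capitals mark GTCT or its reverse complement AGAC, the SMAD box, and GGCGCC, a GC-rich SMAD site that reads the same on both strands; the motifs cannot overlap each other.
Id2, chr12:25096043-25096342, minus strand: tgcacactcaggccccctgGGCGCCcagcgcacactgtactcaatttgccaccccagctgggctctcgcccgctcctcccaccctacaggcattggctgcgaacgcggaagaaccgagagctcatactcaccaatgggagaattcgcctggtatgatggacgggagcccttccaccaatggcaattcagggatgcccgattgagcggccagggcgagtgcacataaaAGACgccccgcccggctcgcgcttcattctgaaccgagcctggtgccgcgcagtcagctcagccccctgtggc
Tgfbi, chr13:56609336-56609635, plus strand: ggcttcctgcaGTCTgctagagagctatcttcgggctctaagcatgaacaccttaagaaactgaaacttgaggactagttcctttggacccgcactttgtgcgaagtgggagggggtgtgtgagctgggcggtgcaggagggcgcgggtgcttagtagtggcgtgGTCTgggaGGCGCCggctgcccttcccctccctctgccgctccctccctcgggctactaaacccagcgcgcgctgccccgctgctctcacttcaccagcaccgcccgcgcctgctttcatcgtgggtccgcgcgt
Cdkn1a, upstream start, chr17:29090729-29091028, plus strand: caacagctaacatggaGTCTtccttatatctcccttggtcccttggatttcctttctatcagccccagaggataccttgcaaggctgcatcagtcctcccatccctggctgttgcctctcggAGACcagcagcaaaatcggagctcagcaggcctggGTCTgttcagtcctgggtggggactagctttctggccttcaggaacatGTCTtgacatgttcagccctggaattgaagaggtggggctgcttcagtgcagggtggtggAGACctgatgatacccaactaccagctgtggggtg
Cdkn1a, downstream start, chr17:29093519-29093818, plus strand: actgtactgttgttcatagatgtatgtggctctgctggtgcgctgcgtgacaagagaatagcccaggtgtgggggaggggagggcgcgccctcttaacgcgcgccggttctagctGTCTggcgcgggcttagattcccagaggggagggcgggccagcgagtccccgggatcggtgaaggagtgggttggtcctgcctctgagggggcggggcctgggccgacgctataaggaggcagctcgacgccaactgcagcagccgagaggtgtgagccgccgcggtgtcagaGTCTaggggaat
Tsc22d1, the most downstream of 5 starts, chr14:76504260-76504559, plus strand: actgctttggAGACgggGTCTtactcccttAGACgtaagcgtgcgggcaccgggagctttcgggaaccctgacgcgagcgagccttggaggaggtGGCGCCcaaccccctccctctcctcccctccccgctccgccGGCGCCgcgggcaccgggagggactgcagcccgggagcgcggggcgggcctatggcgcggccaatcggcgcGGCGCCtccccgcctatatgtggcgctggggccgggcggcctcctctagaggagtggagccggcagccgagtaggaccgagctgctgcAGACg

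The SMAD box is common. It occurs in 88% of all 32851 windows of this length and in 9 of the 10 windows of these genes, while GGCGCC occurs in 11.9% of all windows and in 4 of the 10. The Id2 window holds 1 SMAD box and 1 GGCGCC, and the Tgfbi window 2 and 1. The upstream Cdkn1a window holds 5 SMAD boxes and no GGCGCC, and 8.79% of all windows have 5 or more boxes. The Tsc22d1 window holds 4 boxes and 3 copies of GGCGCC, a number of copies reached or passed by 0.356% of all windows. That is the window richest in GGCGCC of the 5 for this gene: of the others 1 holds 1 copy and the rest none, and 1 has no SMAD box. These are letter matches in short windows, and nothing here measured binding.

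Of the 24 probe sets, 16 were measured, meaning that at least 1 array reached a floor set at a log2 signal of 7.18 (a linear signal of 145), and they cover 8 of the 9 genes. Klf10 was not measured. Log2 ratios are Smad4 -/- over Smad4 f/f after signals below the floor were raised to it. Where 1 array lay below the floor the fold is therefore a bound, written as at least that fold, which applies to 7 of the 16. In all 7 the array below the floor was Smad4 f/f. These counted as measured only through Smad4 -/-, so their ratios could only be positive. By this reading, 2 probe sets were at least 2-fold higher in Smad4 -/- (Cdkn1a and 1 of Id2), 1 was 2-fold lower (Fn1) and 13 did not pass 2-fold, 5 of them bounds. Among all 21377 measured probe sets, 3.24% were 2-fold higher and 3.51% lower. The members' shares, 12.5% and 6.25%, stand above these but rest on counts of 2 and 1. The 2 higher probe sets are bounds that could only be positive, so their share is no separate support for a difference. With 1 value per gene, 1 of 8 genes was 2-fold higher (Cdkn1a) and 1 lower (Fn1), beside 3.42% and 3.58% of all 11089 measured genes. The median log2 ratio was -0.01 over the 8 genes and -0.02 over all measured genes; with the mean of each gene's measured probe sets these became 0.24 and -0.02. With the floor at the 75th percentile no member passed 2-fold, but against that floor the signals of Cdkn1a, Id2 and Fn1 were too low to do so.

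**Figure D1:**
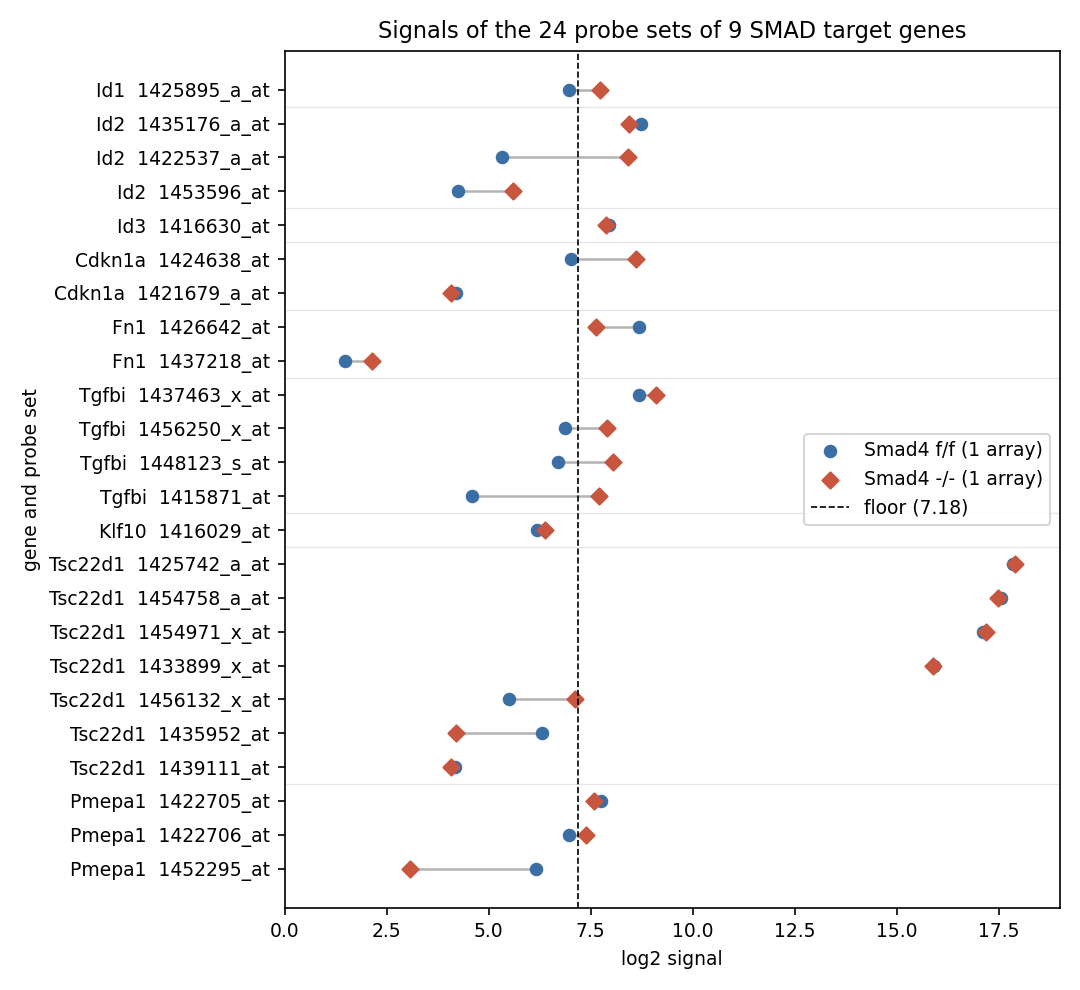
Log2 signal (x axis) of each of the 24 probe sets (y axis, by gene) on the Smad4 f/f array (circles) and the Smad4 -/- array (diamonds), with the floor as a dashed line; each symbol is 1 array and there are no error bars. The 4 strong Tsc22d1 probe sets overlap on both arrays, the 4 Tgfbi probe sets lie higher in Smad4 -/-, and 8 probe sets lie left of the floor on both arrays.

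The Id genes encode small helix-loop-helix proteins that lack a DNA-binding region and hold E proteins off DNA. They showed no common direction. Id1 has 1 probe set (1425895_a_at), with a signal of 126 in Smad4 f/f, below the floor, against 212 in Smad4 -/-, at least 1.46-fold higher. As such a bound, the Id1 ratio could only be positive. Id3 (1416630_at) read 246 and then 235 in the same order, a log2 ratio of -0.06. Pairs of signals below keep this order, Smad4 f/f first. The Id3 signals were thus nearly equal on the arrays, and both lay above the floor.

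Id2 was read differently by its probe sets. The strongest, 1435176_a_at, read 427 and 345, a log2 ratio of -0.31. The next, 1422537_a_at, read 40.2 and 343, at least 2.36-fold higher in Smad4 -/-. Both lay above the floor in Smad4 -/-, but in Smad4 f/f only the first did, and their log2 ratios differ by at least 1.55. The ratio of 1422537_a_at, measured only through Smad4 -/-, could only be positive. The remaining one, 1453596_at, lay below the floor on both arrays with 18.9 and 48.7. The mean log2 ratio of the measured pair was 0.47, against -0.31 by the strongest probe set alone, so the sign for Id2 turns with the choice of probe set. Such disagreement is frequent on these arrays. Of 633 genes with several measured probe sets and at least 1 past 2-fold, 48.5% had another measured probe set of the opposite sign.

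The partners of the Id proteins stayed within 2-fold. Of 6 genes in that list, which holds E proteins, the factors they pair with, and Id4, 5 were measured, with a median log2 ratio of 0.12. Over all measured genes, 3.42% were 2-fold higher and 3.58% lower, so a count of 0 in so small a list says little. Of the E proteins, Tcf3 read 349 and 662, a log2 ratio of 0.93. Tcf4 and Tcf12 had log2 ratios of 0.12 and -0.10, with probe sets down to -0.51 and -0.79. Tal1, a master regulator of blood and megakaryocyte development, read 45033 and 46005, a log2 ratio of 0.03, and Lyl1, its close relative, read 1436 and 1780. Id4 lay below the floor, at 58.4 and 135.

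Cdkn1a, which encodes the cyclin-dependent kinase inhibitor p21, had the highest ratio of the 8 measured genes. Its probe set 1424638_at gave 131 in Smad4 f/f, just below the floor, against 390 in Smad4 -/-, at least 2.68-fold higher. The other probe set, 1421679_a_at, lay far below the floor on both arrays, with 18.4 and 17.0. The value for Cdkn1a therefore rests on a single probe set near the floor, measured only through Smad4 -/-, whose ratio could only be positive. Among measured probe sets with a mean floored log2 signal under 8, where this one and 8 other member probe sets lie, 2.99% were 2-fold higher and 3.63% lower. Raising the floor to the 75th percentile took this bound from a log2 ratio of 1.42 to 0.58.

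Cdkn1a is also a p53 target, and no measured gene among its relatives or the p53 targets listed passed 2-fold. Of 6 other inhibitors of cyclin-dependent kinases, 4 were measured and 0 passed 2-fold, with a median log2 ratio of -0.18. Cdkn2d, an inhibitor of CDK4 and CDK6, read 19339.5 and 15344, and Cdkn1b, which encodes p27, read 3349 and 4010. Of 18 p53-list genes on the array, 14 were measured and 0 passed 2-fold in either direction, with a median of -0.13. Over all measured genes, 3.42% were 2-fold higher and 3.58% lower, so counts of 0 in lists this small say little. Trp53inp1, a p53-induced stress protein, read 24005 and 17093, a log2 ratio of -0.49, and Ccng1, a cyclin induced by p53, read 2898 and 2939.

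Fn1, which encodes fibronectin, an adhesive matrix protein also found in platelet alpha granules, was the only 1 of the 8 measured genes past 2-fold in the other direction. Its probe set 1426642_at gave 413 in Smad4 f/f against 198 in Smad4 -/-, 2.08-fold lower, with both arrays above the floor. The log2 ratio of -1.06 was close to the 2-fold line and became -0.96 when the arrays were centred on their medians. Among measured probe sets of similar signal, with a mean floored log2 signal from 8 to 9, 5.92% were 2-fold lower and 4.34% higher. The other Fn1 probe set, 1437218_at, read 2.80 and 4.42, below the floor on both arrays.

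Tgfbi encodes a secreted matrix protein that binds integrins and was named for its induction by TGF-beta. All 4 of its probe sets were higher in Smad4 -/-. The strongest, 1437463_x_at, read 411 and 550, 1.34-fold higher and the only 1 of the 4 above the floor on both arrays. The others lay below the floor in Smad4 f/f and above it in Smad4 -/-: 1448123_s_at read 104 and 266, at least 1.83-fold higher. The signals of 1456250_x_at were 117 and 241, at least 1.66-fold higher, and those of 1415871_at were 24.1 and 209, at least 1.44-fold higher. None of the 4 passed 2-fold against the floor, and their mean log2 ratio was 0.64. Of 388 genes with 4 measured probe sets, 9.28% had all 4 higher in Smad4 -/-. The 3 Tgfbi probe sets below the floor in Smad4 f/f counted as measured only through Smad4 -/-, so their ratios could only be positive. Only 1437463_x_at could have gone either way, so the shared direction of the 4 is no separate support for a difference. With the floor at the 50th percentile, 3 of the 4 passed 2-fold, and with the floor at the 75th percentile the bound for the gene (1448123_s_at) went from 0.87 to 0.03.

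Beside Fn1 and Tgfbi, the list of their receptors and matrix partners had 1 of 11 measured genes 2-fold higher and 0 lower, with a median of 0.07. Over all measured genes the shares were 3.42% and 3.58%. The one past 2-fold was Itgb7, the integrin beta-7 chain of lymphocytes, which read 112 and 372, at least 2.56-fold higher. Of the fibrinogen genes Fga, Fgb and Fgg, none reached the floor on either array. Itgb3, the beta chain of the platelet fibrinogen receptor, read 75686 and 74784, and Thbs1, a granule protein and itself a TGF-beta target, read 71779 and 71633.

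Tsc22d1, a leucine zipper protein first found as a transcript induced by TGF-beta, stood at the top of the signal scale, and its signals were nearly equal. Its probe set 1425742_a_at read 236998 and 245082, the highest value on each array, although signals of different probe sets are no measure of relative RNA amounts. The next, 1454758_a_at, read 192418 and 184908. The remaining strong probe sets, 1454971_x_at and 1433899_x_at, read 142277 and 150257, and 61462 and 60983.

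The log2 ratios of these 4 ran from -0.06 to 0.08, with a mean of 0.01 and an SD over probe sets of 0.06. Both signs occurred, 2 above and 2 below 0. Of 544 probe sets with a mean log2 signal of 15 or more, 38.4% had log2 ratios within 0.1 of 0, so the closeness of these 4 is shared by many strong probe sets. Whether spots this bright still respond in proportion to RNA was not tested. The other 3 Tsc22d1 probe sets lay below the floor on both arrays. They read 45.0 and 139 (1456132_x_at), 78.7 and 18.5 (1435952_at), and 18.2 and 16.8 (1439111_at). Probe sets of this gene thus fell into a strong group and a weak one. RefSeq lists 5 start sites for Tsc22d1, and which transcript each probe set reads was not analysed here.

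Pmepa1 encodes a membrane protein that keeps SMAD2 and SMAD3 from their receptors, a feedback inhibitor of TGF-beta. Its probe set 1422705_at read 215 and 191, a log2 ratio of -0.17, while 1422706_at read 126 and 168, at least 1.15-fold higher in Smad4 -/-. The pair went opposite ways by small amounts, with a mean log2 ratio of 0.02, but the ratio of 1422706_at, a bound, could only be positive. The last, 1452295_at, read 71.5 and 8.35, below the floor on both. Klf10, a zinc finger repressor induced early by TGF-beta, has 1 probe set (1416029_at), which read 73.1 and 82.8, below the floor on both arrays. No ratio is given for it. Of 17 relatives of Tsc22d1, Klf10 and Pmepa1 on the array, 14 were measured and 0 passed 2-fold by 1 value per gene, with a median of -0.17. Beside 3.42% of all measured genes 2-fold higher and 3.58% lower, this count of 0 says little. Tsc22d3, the glucocorticoid-induced leucine zipper, read 50856 and 45599, and Klf7, a zinc finger factor, read 15195 and 13722. Single probe sets did pass 2-fold. The 3 measured for Tsc22d3 had log2 ratios from -1.64 to -0.16, and the 4 for Klf6 from -0.13 to 1.40.

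**Figure D2:**
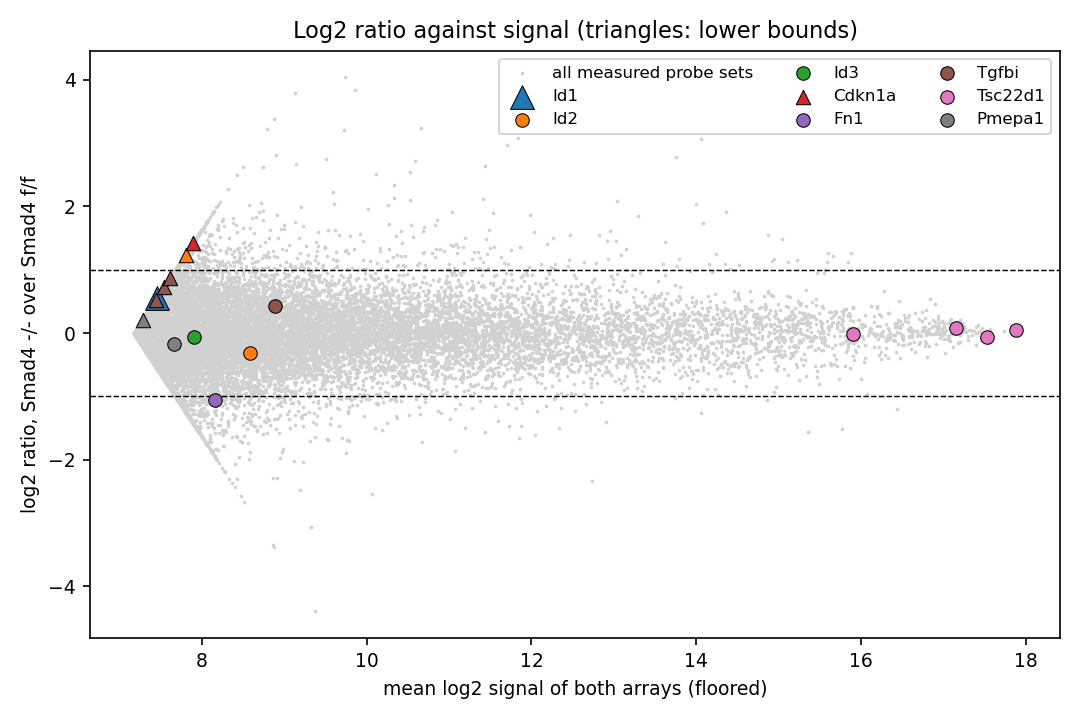
Log2 ratio of Smad4 -/- over Smad4 f/f (y axis) against the mean floored log2 signal of both arrays (x axis) for 21377 measured probe sets (grey) and the 16 measured probe sets of the SMAD target genes (coloured; triangles are bounds with Smad4 f/f below the floor), with dashed lines at 2-fold. The large Id1 triangle lies under a Tgfbi triangle; 9 of the member probe sets have a mean under 8, 3 lie from 8 to 9 and the 4 of Tsc22d1 lie at 15 or more.

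The other target genes of SMAD complexes had a median near that of all genes. Of 31 on the array, 17 were measured, with a median of -0.02, the same as over all measured genes. Of the 17, 3 were 2-fold higher and 1 was lower, beside 3.42% and 3.58% of all measured genes. Skil, the gene of the SMAD repressor SnoN, read 996 and 3421, 3.43-fold higher by 1 measured probe set, while its other probe set stayed below the floor with 128 and 9.35. Ltbp2, a matrix protein related to the TGF-beta binding proteins, read 1380 and 3561, 2.58-fold higher. Gadd45b, a stress response gene, gave at least 2.44-fold higher in Smad4 -/- on 1 probe set, and the other went the opposite way with a log2 ratio of -1.15. Acta2, smooth muscle actin, read 707 and 350, 2.02-fold lower, and its other probe set went the opposite way at 0.37. Smad6, Smad7, Ccn1, Ccn2, Bambi and Atoh8, among the most direct readouts of SMAD activity in other cells, were all below the floor on both arrays.

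Upstream, 21 of 28 SMADs, receptors and ligands were measured. By 1 value per gene, Smad5, a BMP-activated SMAD, was the only 1 of them 2-fold higher, at 244 and 616, and 0 were 2-fold lower. The shares over all measured genes were 3.42% and 3.58%. The 3 measured Smad5 probe sets had log2 ratios from 0.24 to 1.34, with a mean of 0.73. The median over the 21 genes was -0.09. Smad4 itself read 949 and 894 by its strongest probe set, and its 3 probe sets had log2 ratios from -0.13 to -0.09. Where these lie relative to the deleted part was not analysed here, so they do not check the genotype. The labels report a protein check of the loss.

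**Figure D3:**
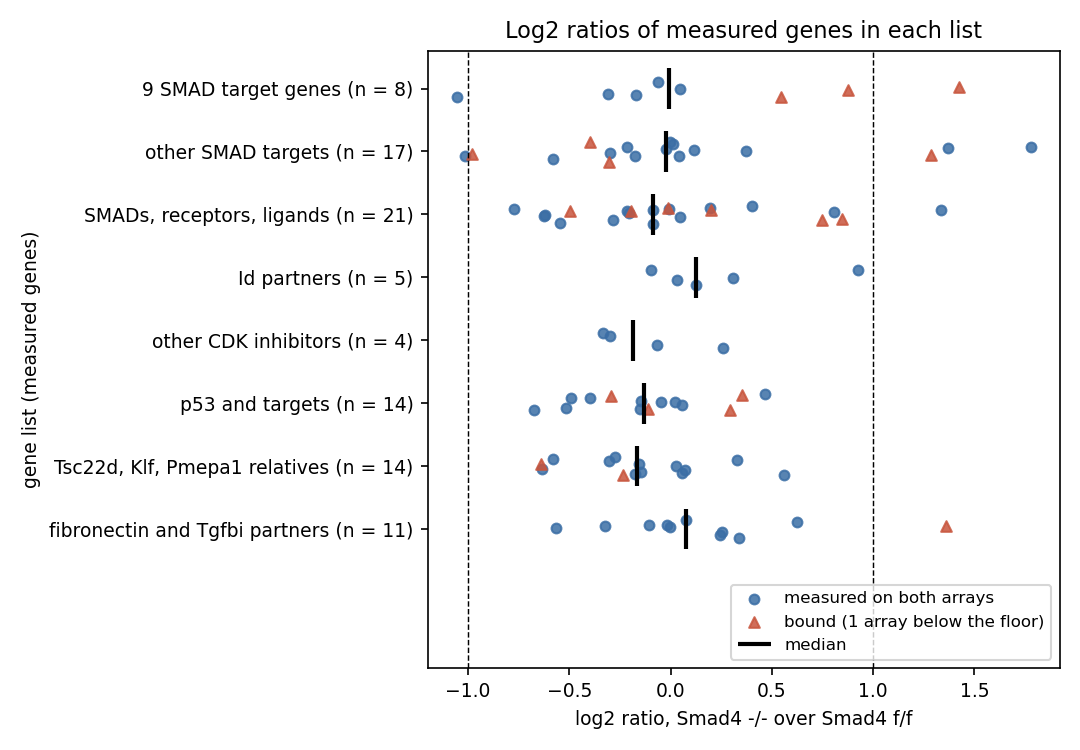
Log2 ratio of Smad4 -/- over Smad4 f/f (x axis) of each measured gene in 8 gene lists (y axis), 1 value per gene; circles were above the floor on both arrays, triangles are bounds, black bars are list medians and dashed lines mark 2-fold. The medians lie between -0.18 and 0.12, and the 8 measured of the 9 SMAD target genes spread on both sides of 0, 4 above and 4 below. The bounds among these 8, for Id1, Cdkn1a and Tgfbi, could only lie above 0.

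Markers of other cells and signs of RNA quality also differed between the arrays. Of 13 platelet markers on the array all 13 were measured and 0 passed 2-fold, with a median of 0.14; Clec1b had a log2 ratio of -0.08 and Pf4 one of 0.04. For the counts that follow, 3.42% of all measured genes were 2-fold higher and 3.58% lower. Erythroid markers had 6 of 11 measured genes 2-fold higher and 0 lower, led by Slc25a37 (3.90-fold), Fech (3.06-fold), Bpgm (2.65-fold) and Alas2 (2.40-fold). By sign, 9 of the 11 lay above 0 and 2 below, Tfrc at -0.61 and Klf1 at -0.31. The summed signals of the erythroid markers were 13410.5 and 32331, although Hba-a1 lay below the floor. For T and NK cells, which use Id2, 1 of 7 measured markers was 2-fold higher and the sum was 7704 and 16518, most of it Cd28 (4685 and 12825), while Cd3d read 356 and 181, and Cd3e, Cd3g and Cd4 lay below the floor on both arrays. Monocytes and macrophages can express Fn1 and Tgfbi, and 1 of 7 measured markers of these cells was 2-fold higher and 0 were 2-fold lower. The one higher was Csf1r, whose probe sets disagree. By sign, 2 of the 7 lay above 0 and 5 below, from at most -0.95 to 1.64, with a median of -0.09. The sum was 141532 and 133071, almost all of it Lyz2, and Cd14, Ms4a7, Ccr2, C1qa, C1qb and C1qc lay below the floor. Of B cell markers 2 of 9 were 2-fold higher (Jchain and Cr2) and of endothelial markers 1 of 10 (Flt1, a bound, whose probe sets disagree). The counts were 0 of 6 for neutrophil markers (S100a8 and S100a9 at 0.23 and 0.47) and 0 of 2 for stromal markers (Col1a2 and Col3a1 at 0.11 and -0.22). In these lists 0 markers were 2-fold lower. By sign, 7 B cell markers lay above 0 and 2 below, with 7 and 3 for endothelial, 5 and 1 for neutrophil, and 1 and 1 for stromal markers. The lowest B cell marker was Blk (-0.84) and the lowest endothelial one Robo4 (-0.74). The sums of these lists were 5145 and 6263, 27433 and 36727, 6243 and 8026, and 1021 and 1078, and Esam made up most of the endothelial sum, with 22458 and 29173. For the Gapdh control probe sets, the ratio of 3' to 5' signal was 1.86 and 2.61, and for those of beta-actin it was 1.16 and 1.27. The part of any of these in the values of Cdkn1a, Id2, Tgfbi and Fn1 was not tested, and in such bulk RNA fewer cells of a type and less RNA per cell cannot be told apart.

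Probe sets of 1 gene give the only measure of technical spread here. Pooled over 4252 genes, the SD of log2 ratios between measured probe sets of a gene was 0.48, 0.56 for probe sets with a mean floored log2 signal under 9 and 0.31 at 9 or more. The log2 ratios of Cdkn1a (at least 1.42) and Fn1 (-1.06) exceed the 0.56 of their range, that of Id1 (at least 0.55) is about as large, and those of Id3 and Pmepa1 are smaller. For Tgfbi, the gene value (at least 0.87), the highest of its 4 probe sets, exceeds it. The strongest Tgfbi probe set (0.42), the only one above the floor on both arrays, lies inside it. For Id2, the strongest probe set (-0.31) lies inside this SD and the other (at least 1.24) beyond it. This SD holds no spread between mice or arrays, so a ratio beyond it is not thereby a difference of genotype. It was taken after weak signals were raised to the floor, which makes ratios smaller. The values of Cdkn1a, Id1 and Tgfbi and the second Id2 value are bounds that could only be positive.

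**Figure D4:**
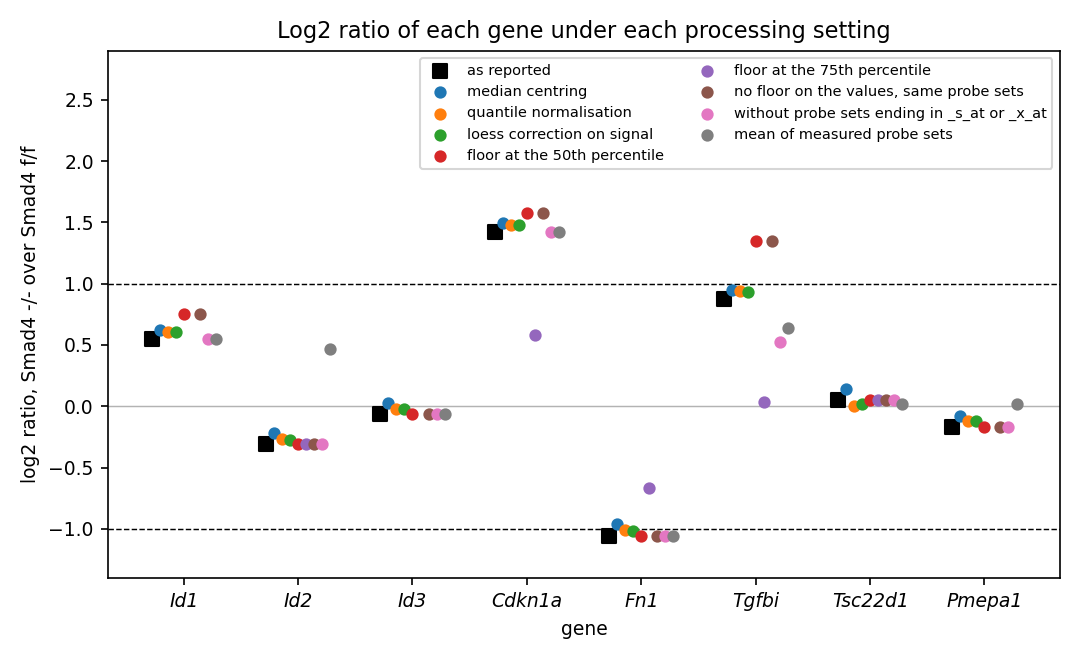
Log2 ratio of Smad4 -/- over Smad4 f/f (y axis) of each of the 8 measured SMAD target genes (x axis) as reported (black squares) and under 8 other processing settings (coloured circles), with dashed lines at 2-fold. Cdkn1a and Tgfbi move most with the floor, Id2 turns sign with the mean of its probe sets, and Tsc22d1 stays between 0.00 and 0.14.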

How the data were processed

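Expression was measured on Affymetrix mouse arrays, 1 per genotype, from platelet RNA amplified with a 3' in vitro transcription kit, per the labels' protocols. The authors deposited log2 signals, 1 per probe set. MAS5 is named per the submitters' processing notes; no version or setting is given in the sources used here. The antilogs have a trimmed mean of 500.01 on both arrays, and the values were used as scaled. Detection calls were not used here.

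The floor was computed on the 45037 probe sets left without controls, as the 60th percentile of each array's log2 signals, and the larger value was used; 40.0% of these reached it on the Smad4 f/f array and 38.5% on the other. A gene is represented by the probe set whose log2 signal averaged highest, with _x_at sets (probes that may cross-hybridise) only where there was no other. Symbols come from the platform annotation, where 34945 probe sets have 1 symbol, 932 several and 9160 none; the rest were left out of gene values. With 1 array per genotype there is no test, and 2-fold is a rule of size. The number of arrays limits the precision.

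All members were named with all their probe sets. From each of 15 further gene lists up to 4 genes past 2-fold, or the 2 with the highest signal, were named by rule. Id4, Itgb3, Thbs1, Klf6, Smad4, the fibrinogen genes, Lyz2, Cd3d, Esam and the other list genes given as below the floor were named outside it, after their values were seen. The same holds for Tcf3, Tcf4, Tcf12, Tfrc, Klf1, Blk and Robo4. The members and lists were chosen with earlier results of these data known. Alternatives were median centring, quantile normalisation, loess on signal (span 0.2), floors at the 50th and 75th percentiles or none, thresholds of 1.5-fold and 3-fold, leaving out _s_at and _x_at sets, and averaging over the measured probe sets of a gene. The steps were checked on made-up arrays with known ratios. These ratios were put only into genes with strong signals, so recovery of a ratio near the floor was not checked. Python 3.11.15, numpy 2.4.6, pandas 2.3.3 and statsmodels 0.14.6 were used.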

Additional observations from a re-analysis of the deposited data

How the results depend on the processing

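Counts of member genes and probe sets past the size rule are small, and several settings moved them. Under a floor raised to the 75th percentile, or under a 3-fold threshold, 0 genes and 0 probe sets were higher and 0 were lower. The raised floor is a log2 signal of 8.02. The highest signals of Cdkn1a (8.61), Fn1 (8.69) and the Id2 probe set 1422537_a_at (8.42) are too close to it for a 2-fold ratio. Over all measured genes, the share higher fell to 2.44% and 0.514% in these settings. With the floor at the 50th percentile, with no floor, and with a 1.5-fold threshold, 2 genes were higher (Cdkn1a and Tgfbi); the higher probe sets numbered 5, 5 and 4. Over all features, the shares 2-fold or, in the last setting, 1.5-fold higher rose as well, to 5.10%, 10.2% and 11.8% of measured genes and 4.94%, 11.8% and 11.4% of measured probe sets. Median centring left 0 genes and 0 probe sets lower, since Fn1 came to -0.96, and over all genes it gave 479 higher and 315 lower against 379 and 397. The counts were unchanged under quantile normalisation, loess, leaving out _s_at and _x_at sets and, for genes, the mean of probe sets. Cdkn1a ranged from 0.58 to 1.58, Fn1 from -1.06 to -0.67, Tgfbi from 0.03 to 1.35, Id1 from 0.55 to 0.75, Id2 from -0.31 to 0.47 and Tsc22d1 from 0.00 to 0.14, all log2 ratios. Id2 (mean of probe sets), Id3 (median centring, 0.03) and Pmepa1 (mean, 0.02) changed sign, each from a ratio within 2-fold. The median over the measured members ran from -0.01 to 0.24, the latter with the mean of probe sets. With the floor at the 75th percentile 5 members were measured, without Id1, Id3 and Pmepa1, so that median covers fewer genes. The median of the other SMAD targets lay between -0.07 and 0.07. No paired analysis was possible because each genotype has 1 array, and the weak signals of 9 of 16 measured probe sets, near the floor, limit what their ratios can show. The list medians under these settings were added after the data were seen.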
